A study of Mus musculus with 12 samples.

Results

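One 384-well plate of mouse epidermal cells was digested with different ribonucleases and concentrations, and it was compared here with the standard plates Old2 and Old4, which carry the same postnatal-day label, P758. All wells with at least 100 counts were used. They were 230 wells of the nuclease plate, 292 of Old2 and 335 of Old4, of 2188 such wells in the 12 plates of the series. The comparison is of 1 plate with 2, so the nuclease plate has no replicate of its own, and wells are not replicates of a condition.

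The study sorted keratinocytes and other skin cells of young and old mice 1 to a well and counted, for each gene, the fragments that ribosomes had covered. All 12 plates shared the genotype (C57BL/6), the source (primary skin cells of the epidermis) and the preparation. Cycloheximide, which halts ribosomes on the mRNA, was given by tail vein 2 minutes before death and kept in the bath at 10 mg/ml. Trypsin at 0.25% then freed the epidermis over 37 minutes, and live cells were sorted. Old2 and Old4 are labelled as old, between 22 and 26 months. The nuclease plate has P758 in its description and no age label of its own, and the sources used here do not say whether the 3 plates came from 1 animal. No label assigns a well to a nuclease or a dose and the wells are named by barcode alone, so nothing below compares one nuclease with another. With no mRNA counts used here, less RNA, fewer ribosomes on it and fewer cells of a type cannot be told apart.

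A translating ribosome shields a short stretch of mRNA from nuclease, and the shielded pieces are read as footprints. Ribonucleases differ in the bases they prefer and in how far they also attack the RNA of the ribosome, so the choice and amount of enzyme set which footprints survive. In the epidermis, basal keratinocytes make keratins 5 and 14, spinous cells make keratins 1 and 10 and many desmosomes, and the mitochondrial genome has its own ribosomes inside the organelle.

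The wells of the nuclease plate were shallower. Their median was 395.5 counts and the highest well had 2269. In Old2 the median was 733.5 and in Old4 964, and 31 and 53 of their wells exceeded the highest well of the nuclease plate. At least 500 counts were reached by 42.6% of the nuclease wells, against 72.3% in Old2 and 77.9% in Old4. Summed over wells the plates held 128007, 364916 and 531772 counts. The 10 standard plates of the series had medians from 168 to 1870.5, so a shallow plate is not peculiar to the nuclease test.

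**Figure D1:**
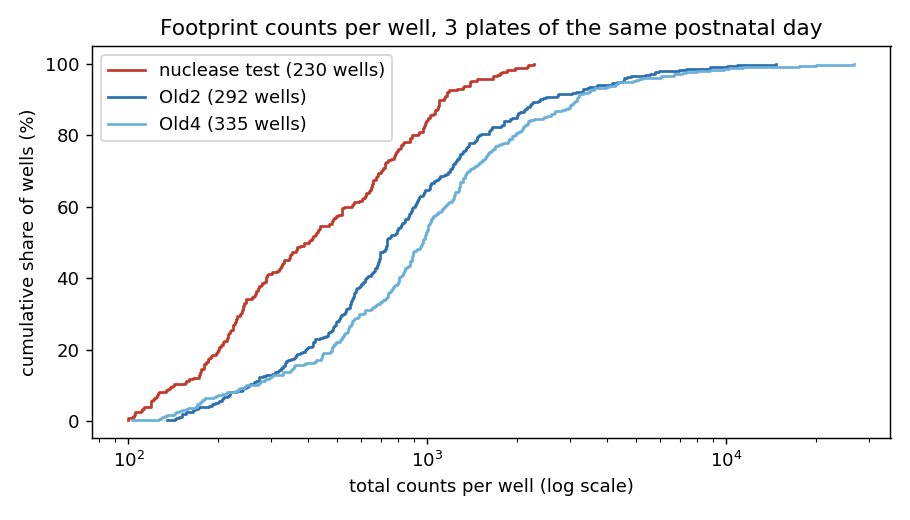
Cumulative share of wells (%) against total counts per well (log scale), 1 line per plate, for wells of at least 100 counts. The nuclease line lies to the left of both standard lines, with a median of 395.5 counts beside 733.5 and 964.

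To compare genes at like depth, wells were matched on total counts, which left 162 wells on each plate. The matched wells summed to 114079 counts on the nuclease plate, 114473 on Old2 and 115440 on Old4, so that 1 count was worth about 8.77, 8.74 and 8.66 CPM, the unit of counts scaled to a common library size. Values below are CPM over matched wells unless all wells are named. Over all wells, 1 count was worth 191 CPM in Young10, 80.8 in Young8, 77.6 in Old12 and 46.5 in Old7. Ranks among the 10 standard plates are therefore coarse for genes or lists with few counts. Matching equalises depth and not position, since a well of 646 counts, the matched median of the nuclease plate, is among the deeper wells there and among the shallower ones in Old4. For many results that turned when all wells were used, both values are given. The labelled tissue had its markers on each plate, since 7 nuclease wells, 2 of Old2 and 7 of Old4 had no count of the 6 keratins Krt5, Krt14, Krt15, Krt1, Krt10 and Krt77.

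At equal depth the nuclease plate lay farther from each standard plate than these lay from each other. Over 533 genes the SD of the log2 ratio was 0.72 between the nuclease plate and Old2, 0.64 between it and Old4, and 0.41 between Old2 and Old4. Differences beyond 2-fold made up 10.3%, 7.13% and 2.06% of these genes. The correlation of log2 values across genes was 0.759, 0.809 and 0.916 (Pearson's r, a description, as genes are not independent). The chi-square per degree of freedom, which is about 1 where plates differ by counting noise alone, was, over 801 to 821 genes of at least 50 counts, 8.10, 5.56 and 2.52.

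In the fit over all 4696 genes that passed the filter on low counts, edgeR's quasi-likelihood test with Benjamini-Hochberg adjustment called 1 gene at 0.05, Eif2a, which is 0.0213% of those tested. There were 438 genes at an unadjusted p under 0.05. The fit took the plate-to-plate spread from Old2 and Old4 and from 5 further standard plates, and assumed that the nuclease plate varies like them. No label says which plates came from separate animals, so p-values measure the spread between plates, which may be technical. DESeq2 on the same counts called 35 genes, 20 higher and 15 lower on the nuclease plate, or 0.745%, and left 4097 without an adjusted p. Across 14 alternative fits, of which 3 were added after values were seen, the count ran from 0 with the 3 compared plates alone to 35.

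Eif2a, an initiation factor used outside the usual route of start codon recognition, had 7 counts on the nuclease plate (61.4 CPM), 429 on Old2 (3748 CPM) and 255 on Old4 (2209 CPM). It had a count in 7 of the 162 matched wells of the nuclease plate, against 118 and 112. The fitted log2 difference was -5.54 (SE 0.511, edgeR adjusted p = 6.99e-08), and it passed in 13 of 14 alternative fits. With the 3 plates alone it did not pass, at an adjusted p of 0.456. The low value was not peculiar to the nuclease plate among all 12. Over all wells Eif2a had 0.0391 counts per well there and 2.46 and 1.45 in Old2 and Old4, but also 0.0552 in Old11, 0.0263 in Old12, 0.0556 in Old7, 0.0625 in Young8 and 0 in Young10. In Young1, Young3 and Young9 it had 2.80, 2.45 and 0.826. These 5 standard plates were shallow, with medians of at most 347 counts per well. In CPM over all wells, which divides by depth, the nuclease plate had 70.3, against 0 to 243 on those 5 plates and 622 to 1968 on the deeper ones. It was thus below 9 of 10 standard plates in CPM, by little for Old12 at 77.6, which was 1 count.

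Within Old2 and Old4, Eif2a also did not scale with the depth of a well. In Old2 the mean count per well was 2.77 in the shallowest quartile of wells, where the median total was 282, and 2.41 in the deepest, where it was 2148. In Old4 it was 1.36 and 1.48. Krt5, by contrast, went from 4.47 to 56.5 counts per well in Old2 and from 3.98 to 79.7 in Old4. On the nuclease plate Eif2a had 0.0172 counts per well in the shallowest quartile and 0.0862 in the deepest. These rest on 1 and 5 counts, too few to say whether it scaled with depth there.

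A few other genes, chosen after their values were seen, also had counts on Old2 and Old4 that rose little with depth. Vav1, a guanine nucleotide exchange factor of blood cells, had 131 CPM on the nuclease plate, 1904 on Old2 and 1611 on Old4, from 15, 218 and 186 counts. Its mean in Old2 was 1.25 counts per well in the shallowest quartile and 1.63 in the deepest, and in Old4 1.31 and 1.17. Ubap2, which codes for a ubiquitin-associated protein, had 210 CPM against 1712 and 1377. These counts were spread over wells, with Vav1 found in 14 of 162 nuclease wells against 116 and 97, and Ubap2 in 22 against 104 and 96. Heca had 333 CPM against 1738 and 1447, and the phosphatase gene Ppm1n 736 against 3031 and 2989. The nuclease plate was below both standard plates for each of them, with fitted log2 differences of -3.68, -2.82, -2.20 and -1.98. None passed the edgeR test, at adjusted p of 0.155, 0.601, 0.350 and 0.557. Vav1 too was low on shallow standard plates, with 0.0552 counts per well in Old11 and 0.0208 in Young8, against 0.0870 on the nuclease plate. Other genes of the set were higher on some shallow standard plates than on the nuclease plate. Ubap2 had 0.117 counts per well there, 0.352 in Old7 and 0.271 in Young8, and Heca had 0.187 there, 0.579 in Old12 and 0.538 in Young10. Ubap2 rose more with depth in Old4, from 0.810 to 1.51 counts per well, and less in Old2, from 1.03 to 1.26. Heca went from 1.06 to 1.36 in Old4, and Ppm1n from 2.01 to 2.45, while total counts per well rose from a median of 299.5 to 2920.5. CPM of such genes depends on which wells are compared, and over all wells Vav1 had 156 CPM against 1093 and 747.

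**Figure D2:**
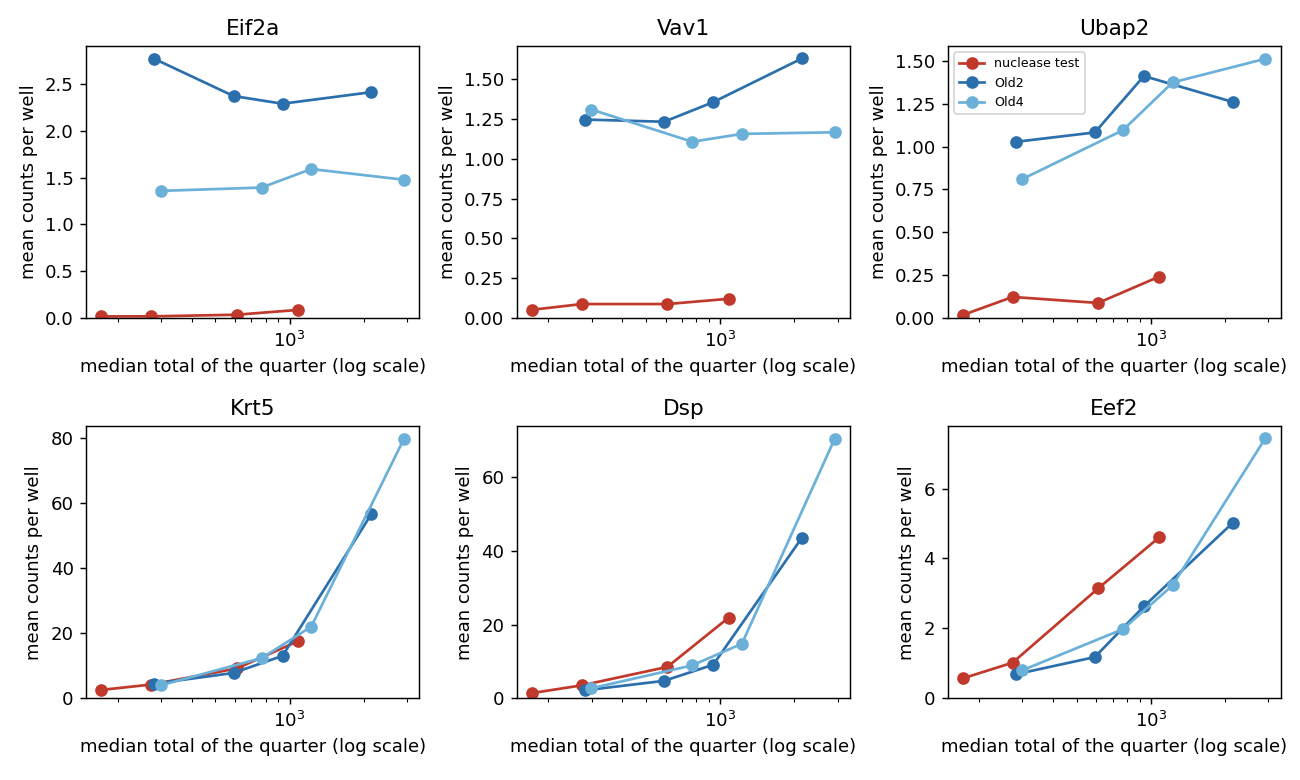
Mean counts per well against the median total of each quartile of wells (log scale) for 6 genes, 1 line per plate, over all wells of at least 100 counts. Eif2a, Vav1 and Ubap2 stay near or below 2.77 counts per well at every depth and lie lowest on the nuclease plate, while Krt5, Dsp and Eef2 rise with depth on all 3 plates.

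Of the 10 genes with the smallest p, 7 were lower and 3 higher on the nuclease plate, and for all 10 it lay outside both standard plates. Tmsb4x, the actin-binding thymosin beta 4, had 228 CPM against 751 in Old2 and 884 in Old4, and its fitted difference was -1.79 on the log2 scale (SE 0.360, adjusted p = 0.0634 by edgeR). It passed in 9 of 14 alternative fits. S100a6, a small calcium-binding protein, had 219 CPM against 743 and 658. Mt1, a metallothionein that binds zinc and copper, had 438 against 1162 and 1256. Their log2 differences were -1.62 and -1.41, each with an edgeR adjusted p of 0.0777. Ly6a, which codes for the surface protein Sca-1, had 3 counts against 31 and 20, a ratio of 0.119 (95% counting interval 0.0237 to 0.367). Morc2a, a chromatin silencing factor, had 43.8 CPM against 314 and 303. Over all wells it was below all 10 standard plates, a rank that rests on few counts on the smallest of them. Ttn, the giant protein of muscle, had 43.8 CPM against 314 and 182, from 5, 36 and 21 counts. The list of muscle markers took 0.00263% of matched counts, against 0.0122 and 0.0104%.

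The 3 genes higher on the nuclease plate in that list differed in how they were spread. mt-Nd4, a subunit of complex I made inside mitochondria, had 1008 CPM against 306 in Old2 and 494 in Old4 and was found in 63 wells against 30 and 42. The fit gave it 1.39 on the log2 scale (SE 0.308, adjusted p = 0.0777 by edgeR). Mki67, a marker of dividing cells, had 596 CPM against 105 and 113, from 9 wells against 5 and 6. In each plate 3 matched wells held most of its counts, 66.2% on the nuclease plate, 83.3% in Old2 and 76.9% in Old4. The gap was smaller over all wells, where Mki67 had 539 CPM against 293 and 448. H1f5, a linker histone, had 32 counts against 5 and 2, of which 18 lay in 1 well, and on every plate it was found in at most 6 wells. Over all wells H1f5 had 250.0 CPM against 203 and 246. The list of cycling markers, took 0.108% of matched counts against 0.0341 and 0.0338%, and 0.0984% over all wells against 0.109 and 0.130%, and its part in these values was not tested.

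**Figure D3:**
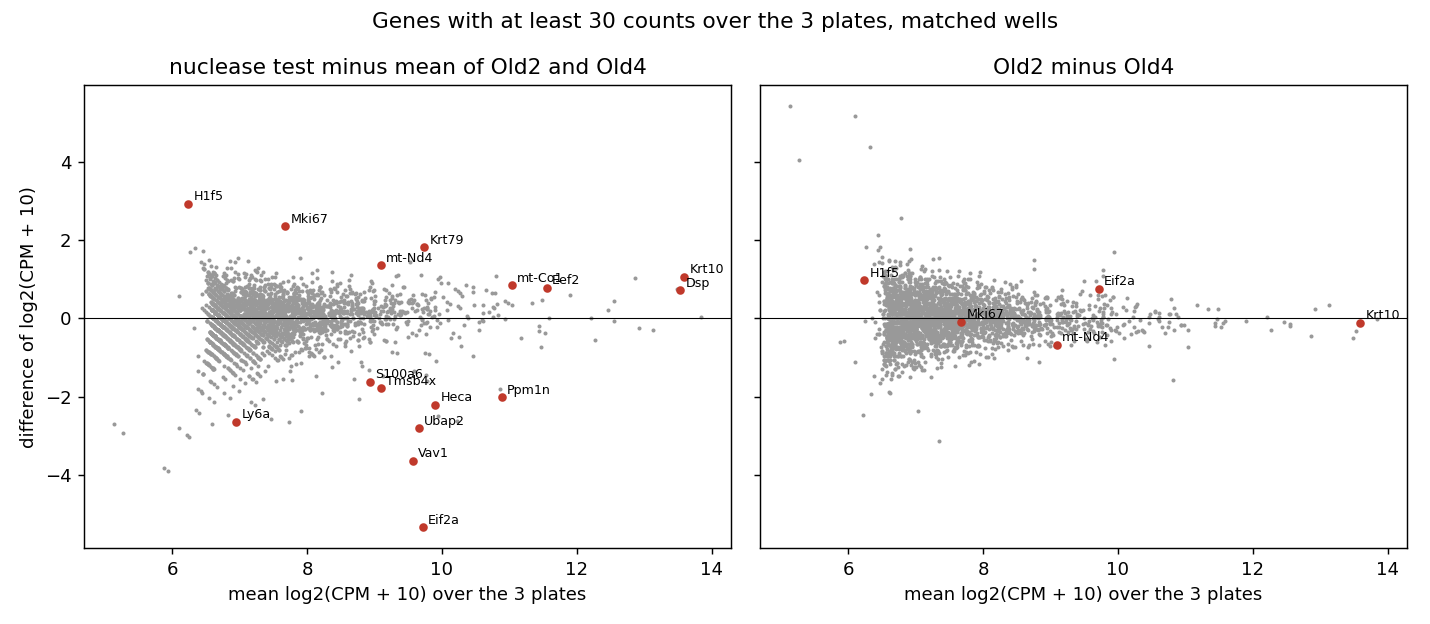
Difference of log2(CPM + 10) against the mean of log2(CPM + 10) over the 3 plates for genes of at least 30 counts, matched wells; left, nuclease plate minus the mean of Old2 and Old4, and right, Old2 minus Old4. Eif2a, Vav1, Ubap2, Heca and Ppm1n stand below the bulk of the genes on the left.

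For gene groups, members with at least 30 counts over the 3 matched plates were called measured, a minimum set after values were seen. Over all 2656 measured genes the nuclease plate lay above both standard plates for 39.5% and below both for 33.7%, and the median log2 difference was 0.02, on the log2(CPM + 10) scale. Over all wells these shares were 48.9% and 35.6% and the median was 0.10. Group counts below are to be read against these shares. The share of all genes beyond all 10 standard plates is not given here, so the ranks of single genes among those plates have no such background. No group had a member called by the edgeR test.

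Proteins encoded in mitochondrial DNA, the subunits of the respiratory chain made by mitochondrial ribosomes, took the highest share on the nuclease plate. They made up 1.16% of matched counts there (95% interval 1.096 to 1.22), 0.453% in Old2 (0.415 to 0.494) and 0.859% in Old4 (0.807 to 0.914). The 2 standard plates thus differed from each other by more than counting error, and the nuclease plate was above both. Over all wells the shares were 1.26, 0.319 and 0.546%, and all 10 standard plates lay between 0.210 and 0.566%. Of 7 measured genes 6 were above both standard plates, with a median log2 difference of 0.84. Over all wells these 6 also lay above all 10 standard plates.

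mt-Co1, the catalytic subunit of cytochrome oxidase, had 3086 CPM against 1328 in Old2 and 2218 in Old4. mt-Nd1 and mt-Nd5 of complex I had 2963 against 795 and 2408, and 1552 against 533 and 1109. mt-Cytb of complex III had 2042 against 909 and 1481. mt-Nd2 had 780 against 437 and 710. Old4 was the nearer plate for each of them, and for mt-Nd2 and mt-Nd1 the gap to Old4 was small beside the gap between Old2 and Old4. The fitted log2 differences of these 5 were 0.85, 0.94, 0.97, 0.83 and 0.50, and none passed. mt-Nd6, the one subunit read from the other strand of the mitochondrial genome, was the exception at 140 CPM against 201 and 147, and over all wells it was above both, at 148 against 134 and 117. Of the 13 genes, mt-Co2, mt-Atp8 and mt-Nd4l had 0 counts on all 12 plates and mt-Atp6 and mt-Co3 had 1 each, and mt-Nd3 had none on the nuclease plate, so its share rests on 7 genes.

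The mitochondrial share fell with the depth of a well in Old2 and Old4. Between plates, the standard plates shallower than the nuclease plate, with medians from 168 to 347 counts, had at most 0.566% over all wells. The part of depth in the share of the nuclease plate was not tested. From the shallowest to the deepest quartile of wells it was 0.645, 0.489, 0.384 and 0.236% in Old2 and 1.45, 0.768, 0.669 and 0.397% in Old4. On the nuclease plate it was 2.90, 1.09, 1.47 and 0.984%. Its second value, from wells of 221 to 388 counts, was below the first of Old4, from wells of 103 to 538 counts, so the order does not hold at every depth. Its deepest quartile, with totals from 784 to 2269, was above the third quartiles of Old2 and Old4, with totals from 734 to 1306 and from 968 to 1601. With each well thinned to 200 counts, 79.5% of 185 nuclease wells had a mitochondrial count, against 48.9% of 276 wells in Old2 and 66.1% of 310 in Old4. The median was 2 counts of 200 on the nuclease plate, 0 in Old2 and 1 in Old4. In matched wells where basal keratins had more counts than spinous ones, the share was 1.17% on the nuclease plate, 0.401% in Old2 and 0.902% in Old4. Where spinous keratins had more, it was 1.07, 0.440 and 0.998%, so that the nuclease plate lay close to Old4.

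Cytosolic ribosomal proteins, the building blocks of the ribosome, took 0.972% of matched counts on the nuclease plate against 0.755 and 0.757%. Over all wells the shares were 0.965, 0.595 and 0.585%, with the 10 standard plates between 0.344 and 0.622%. Of 16 measured members 13 were above both standard plates and 2 below, with a median log2 difference of 0.36. Rpl4 had 1920 CPM against 961 in Old2 and 1178 in Old4, with a fitted log2 change of 0.90 (SE 0.280, adjusted p by edgeR = 0.282), and Rpl8 had 1113 against 708 and 771. Rps3 of the small subunit had 929 against 646 and 806. All 3 were above both plates. In Old2 the share fell from 0.942% in the shallowest quartile of wells to 0.507% in the deepest, and in Old4 from 0.971 to 0.490%. On the nuclease plate it was 0.870, 0.905, 0.936 and 1.01%, so its 2 shallowest values did not exceed the first of Old2 or Old4. In matched wells with more basal keratin counts the share was 0.940% against 0.661% in Old2 and 0.893% in Old4, so Old4 was close. Where spinous keratins had more, it was 1.04% against 0.773 and 0.716%. Of the 85 genes 28 had no matched count on the nuclease plate, and the counting may have lost or divided reads that fit several near-identical copies, so single members are uncertain.

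Translation factors took 1.39% of matched counts on the nuclease plate against 0.991 and 1.03%, and 1.38% over all wells against 0.928 and 0.966%, with all 10 standard plates between 0.830 and 1.13%. Of 25 measured members 17 were above both standard plates and 5 below, with a median log2 difference of 0.25. Over all wells 13 were above and 8 below, with a median of 0.07, close to the shares over all genes. Eef2, which moves the ribosome along the mRNA, had 4286 CPM against 2394 and 2625. Eef1a1, which brings aminoacyl-tRNA to the ribosome, had 1622 against 690 and 866, with a fitted log2 change of 1.11 (SE 0.300, adjusted p by edgeR = 0.178). Both lay above all 10 standard plates over all wells. The scaffold proteins of initiation Eif4g2 and Eif4g1 had 1297 against 1092 and 936, and 736 against 708 and 624. Over all wells Eif4g1 lay between the standard plates. The share hardly moved with depth in the standard plates, from 0.891 to 1.07% over their quartiles of wells, and on the nuclease plate each quartile lay above that, from 1.28 to 1.53%. Eif2a was not in the list.

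**Figure D4:**
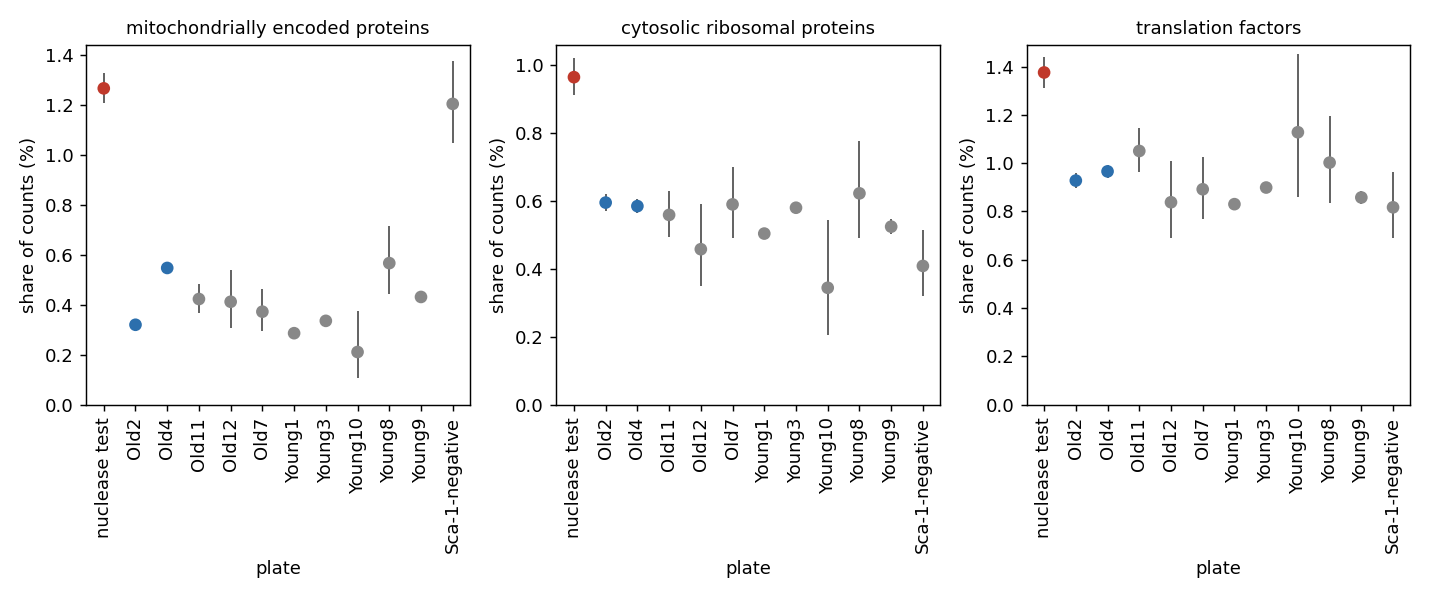
Share of counts (%) over all wells of at least 100 counts for 3 gene groups on each of the 12 plates, with exact 95% binomial intervals that cover counting error only. The nuclease plate, at 1.26, 0.965 and 1.38%, is above all 10 standard plates in each panel, and the Sca-1-negative plate reaches 1.20% for mitochondrially encoded proteins.

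Nuclear-encoded subunits of oxidative phosphorylation, which work in the same complexes as the mitochondrial ones, did not follow them. Their share was 0.452% on the nuclease plate against 0.532 and 0.549%, and over all wells 0.442% against 0.621 and 0.559%. Of 17 measured members 6 were above both standard plates and 8 below.

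Spinous differentiation genes were higher on the nuclease plate in matched wells and lower in all wells. Krt10, a keratin of the spinous layer, had 20214 CPM against 9295 in Old2 and 10092 in Old4 in matched wells, and 19210 against 20309 and 24012 over all wells. Its partner Krt1 had 12000 against 5032 and 6904, and 11328 against 16091 and 12094. The fitted log2 differences turned from 1.11 to -0.23 and from 1.06 to -0.34. In wells with more basal keratin counts the fitted difference of Krt10 was -0.29, from 60 counts against 49 and 96. Krt10 counts help decide which wells these are, so that value cannot show a turn. Neither gene passed, with edgeR adjusted p of 0.170 and 0.178 in matched wells. Of 12 measured genes of the spinous list 8 were above both standard plates in matched wells and 3 over all wells, where 8 were below. The share of the list was concentrated in the deepest quartile of the standard wells, at 5.81 and 5.94% against at most 2.18% in their other quartiles, and matching leaves most of those wells out. On the nuclease plate the quartiles had 2.01, 2.78, 3.09 and 4.18%. Spinous keratins had more counts than basal ones in 36.4% of the matched nuclease wells, against 26.5% in Old2 and 30.9% in Old4. The part of this mix of wells in the matched values was not tested. Dsg1a, the desmoglein of upper layers, was above both plates either way, at 1367 CPM against 507 and 771 and over all wells at 1398 against 1041 and 1155. Dmkn, which codes for dermokine, turned, with 868 CPM against 769 and 728 in matched wells and 836 against 1400 and 2319 over all wells.

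Desmosome genes, which code for the junctions that bind keratinocytes to each other, showed the same dependence in part. Their share was 3.21% against 2.00 and 2.41% in matched wells, and 3.11% against 2.82 and 3.28% over all wells. Of 12 measured members 10 were above both standard plates in matched wells and 7 over all wells. Dsp, the plakin that ties keratin filaments to the desmosome, had 16471 CPM against 8963 and 11235, and 15890 against 11901 and 15256 over all wells. The plaque proteins Pkp1 and Jup had 2323 against 1354 and 1594, and 2384 against 1642 and 1862, and over all wells Jup was below both plates. Dsc3, a desmocollin of lower layers, was below both plates at 2525 against 2708 and 3110, and over all wells below all 10 standard plates.

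Ahnak, a very large scaffold protein of the cell cortex, was above both plates in matched and in all wells. In matched wells it was 1 of the 5 most abundant genes on the nuclease plate and on Old4, but not on Old2. It had 16252 CPM against 8115 and 11573, and over all wells it exceeded all 10 standard plates. Ahnak2 had 2227 against 1249 and 1455, and the cadherin Celsr2 of planar cell polarity had 1043 against 446 and 537. The last 2 were chosen after their values were seen. None passed the edgeR test, with adjusted p of 0.364, 0.364 and 0.170.

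Of the basal markers, Krt5 had 15033 CPM on the nuclease plate against 14510 and 14683, but over all wells 15038 against 16346 and 18583. Krt5 thus changed side, while Krt14 was below both at 7793 against 10832 and 8524. Col17a1, the collagen of hemidesmosomes, had 6872 against 8893 and 7580, but over all wells lay between the plates, at 7015 against 6993 and 7074. Over all wells, basal keratins had more counts than spinous ones in 62.2% of the nuclease wells, 67.8% of those of Old2 and 66.0% of those of Old4. In matched wells these shares were 62.3, 72.2 and 64.2%. Among hemidesmosome and laminin-332 genes, which anchor basal cells to the basement membrane, 4 of 9 measured members were above both plates and 2 below. Their share was 2.28% against 2.36 and 2.19% in matched wells, and 2.28% against 1.85 and 2.02% over all wells. The linker proteins Plec and Dst had 6224 against 5198 and 5544, and 4751 against 4822 and 4686. Over all wells Dst was above both, at 4758 against 3620 and 3755. The integrin Itgb4 had 1815 against 1441 and 1421, and Lamb3 of laminin-332 had 798 against 611 and 589.

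In the metallothionein and antioxidant group 0 of 9 measured members were above both standard plates and 6 below, at a share of 0.233% against 0.372 and 0.368%. Over all wells 2 were above and 7 below. Mt2 was 1 of those that turned, with 692 CPM against 874 and 849 in matched wells and 711 against 628 and 630 over all wells. In the S100 family, a list added after values were seen, 3 of 4 measured members were below both plates. S100a14 had 193 against 620 and 554, and S100a10 had 245 against 524 and 650. S100a4 had 0 matched counts against 8 and 15, at least 3.80-fold lower against a floor of 3 counts on the nuclease plate. That minimum holds for the drawn wells only, since over all wells S100a4 had 23.4 CPM against 79.5 and 54.5. The tetraspanin Cd9, also chosen later, had 570 against 1302 and 1169, and was below all 10 standard plates over all wells.

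Genes of MHC class I presentation, which displays peptides to T cells, took 0.412% of matched counts against 0.544 and 0.547%. B2m, the light chain shared by class I molecules, had 894 CPM against 1765 and 1732, with a fitted log2 change of -0.91 (SE 0.308, adjusted p by edgeR = 0.321), and was below all 10 standard plates over all wells. The heavy chains H2-K1 and H2-D1 were closer, at 1175 against 1310 and 1351, and 754 against 821 and 875. Of 7 measured members 1 was above both plates and 4 below.

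Of adherens junction and actin genes 1 of 12 measured members was above both plates and 8 below. Actb, the main cytoplasmic actin, had 2007 CPM against 3337 and 3387, with a fitted log2 change of -0.69 (SE 0.298, adjusted p by edgeR = 0.474). Secreted and matrix proteins took 0.856% against 1.07 and 1.096%. Their most abundant member Apoe, a lipid carrier, had 3804 against 5058 and 6254, and was below all 10 standard plates over all wells. Col7a1, which forms anchoring fibrils, had 894 against 1651 and 1291, and over all wells lay between the plates. Of 10 measured members of that list 3 were above both plates and 4 below.

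Over the 28 lists with counts on the nuclease plate, the share over all wells was above all 10 standard plates for 3 and below all 10 for 5. The 3 were mitochondrially encoded proteins, ribosomal proteins and translation factors. The 5 were nuclear oxidative phosphorylation, adherens junction and actin, MHC class I presentation, secreted and matrix proteins, and outer bulge genes. The distances were small for MHC class I, at 0.412% against a lowest standard plate of 0.422%, and for outer bulge genes, at 0.0500 against 0.0511%.

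**Figure D5:**
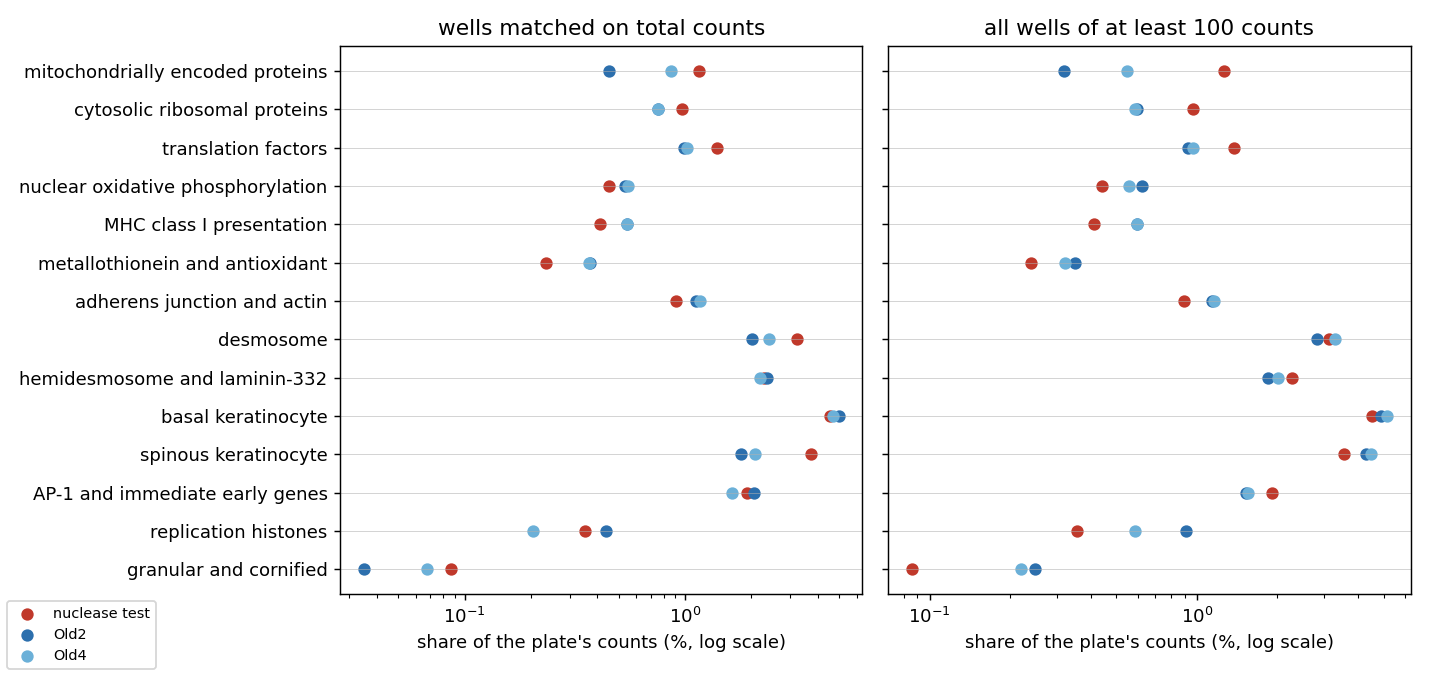
Share of each plate's counts (%, log scale) taken by 14 gene groups in matched wells (left) and in all wells of at least 100 counts (right), 1 point per plate. The nuclease plate is above both standard plates on both sides for mitochondrially encoded proteins, ribosomal proteins and translation factors, and changes side for spinous keratinocyte genes.

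Immediate early genes, the fast transcriptional response to stimuli, lay between the standard plates in matched wells. Their share was 1.90% on the nuclease plate, between 2.06% in Old2 and 1.63% in Old4, but in a second draw of wells 1.91% against 1.59 and 1.55%, and over all wells 1.90% against 1.52 and 1.55%. In matched wells of at least 500 counts it was below both, at 1.93% against 2.02 and 2.01%. Fos, a subunit of AP-1, had 1806 CPM against 2900 and 2296, while its partner Jun had 2376 against 1782 and 1273. The zinc finger factor Egr1 had 3077 against 2551 and 2157, and Junb 1762 against 1651 and 1767. Over all wells Junb was above both, at 1703 against 1335 and 1595. On the nuclease plate the share was highest in the shallowest quartile of wells, at 2.33%, where Old2 and Old4 had 0.951 and 0.687%.

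Replication histones, made in S phase, had a matched share of 0.353%, between 0.439 and 0.204%, and a share over all wells of 0.355% against 0.911 and 0.584%. The histones H4c14 and H4c4 had 202 CPM against 489 and 407, and 131 against 507 and 295. Of wells thinned to 200 counts 22.7% had a histone count, against 35.9 and 30.3%, and the variance between wells was 21.5, 21.5 and 14.6 times the binomial one, since few wells held most counts. Of the mitotic genes, Top2a and Cenpf had 21 and 16 counts against 10 and 3, and 3 and 2, and over all wells both were below the standard plates.

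Markers of rarer cells rested on few wells. Krt79 and Krt17, keratins of the upper hair follicle, had 1964 CPM against 603 and 502, and 1429 against 428 and 624, but 92.0% and 81.6% of their counts on the nuclease plate lay in 3 wells, against 48.3 to 58.0% and 44.9 to 55.6% on the standard plates. Over all wells Krt79 had 1805 CPM against 1609 in Old2 and 331 in Old4, and Krt17 had 1281 against 869 and 282. In wells with more basal keratin counts the difference of Krt79 was -0.079, from 11 counts against 8 and 15. Where spinous keratins had more, Krt79 had 206 counts against 16 and 33. Cst6, a cystatin of the same cells, was found in 3 nuclease wells. Of bulge stem cell genes, Postn had 254 CPM against 777 and 537, Nfatc1 had 7 counts against 27 and 22, and Sox9 had 1 count against 15 and 8, a ratio of 0.0876 (0.00213 to 0.540). Cd3g of the T cell receptor complex had 0 counts against 12 and 19, at least 5.13-fold lower against a floor of 3 counts, and the leukocyte gene Ptprc had 1 against 9 and 21. Cd74, the invariant chain of MHC class II, had 6 counts in 1 well, against 9 in 7 wells and 89 in 12. H2-Ab1 and H2-Eb1 lay between the plates in matched wells. Over all wells they were above both, at 93.7 CPM against 68.5 and 47.0, and 62.5 against 41.1 and 58.3. Langerhans and myeloid markers took 0.0289% of matched counts, between 0.0253 and 0.149%, and 0.0516% over all wells against 0.0663 and 0.0581%. With wells thinned as for the histones above, these markers averaged 0.276 counts per well, against 0.0906 and 0.219. The share of T cell markers over all wells was 0.0156% against 0.0469 and 0.0617%. Melanocyte, fibroblast, endothelial, erythroid and muscle lists each took at most 0.0280% on any of the 3 plates, matched or not.

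Of cholesterol synthesis genes 0 of 5 measured members were above both standard plates and 3 below, and over all wells all 5 were below. Hmgcs1, which makes the precursor of mevalonate, had 465 CPM against 708 and 728, and was below all 10 standard plates over all wells. Of glycolysis genes 5 of 9 were above both plates and 1 below, but over all wells 3 and 4. Of heat shock and chaperone genes 3 of 11 were above and 4 below, but over all wells 1 and 9, and Hsp90b1, a chaperone of the endoplasmic reticulum, had 324 CPM against 428 and 468.

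The number of genes seen per well was similar once depth was equal. With wells thinned to 200 counts the median was 173 genes on the nuclease plate, 177 in Old2 and 175 in Old4, over 185, 276 and 310 wells, and the 10 most abundant genes of a well took 15.5, 14.5 and 15.0% of its counts. Without thinning it was 313, 580 and 705. Thinned to 500 counts it was 391, 406 and 399, over 98, 211 and 261 wells, with a top 10 share of 14.6, 11.8 and 13.2%.

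Genes that span more of the genome were slightly higher on the nuclease plate. By tertiles of genomic span, from the shortest to the longest, the median log2 difference was -0.06, 0.03 and 0.09 in matched wells and -0.07, 0.05 and 0.26 over all wells, among 2642 nuclear genes with a known span. Of the shortest tertile 35.5% were above both standard plates and 40.9% below, and of the longest 42.8% were above both. Genomic span includes introns, which ribosomes do not read, and the length of the coding sequence was not used here.

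In GRCm38, Eif2a lies on chromosome 3 from 58525821 to 58557501, Tmsb4x on chromosome X from 167207093 to 167213479, Mt1 on chromosome 8 from 94178883 to 94180327 and Vav1 on chromosome 17 from 57279100 to 57329236. Eef2 lies on chromosome 10 from 81176631 to 81182509, and Krt10 on chromosome 11 from 99385254 to 99397449. All 6 are annotated as protein-coding genes in the RefSeq table.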

How the data were processed

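The files hold counts per gene and well as the authors deposited them, whole numbers for 22416 genes. Per the submitters' processing notes, fastp, Bowtie2, STAR, UMI-tools and featureCounts were used with GRCm38.p6. No settings of these tools were found in the labels. Each file is 1 plate of a 384-well format. Members and lists were chosen with earlier results of these data known.

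Wells of at least 100 counts were summed per plate. The 3 compared plates were matched in log2 bins of width 0.5 of total counts, drawing the same number from each bin (seed 1). The fit in edgeR 4.0.16 (R 4.3.3) used TMM, filterByExpr and robust quasi-likelihood on 8 plates in 4 groups, with 4 residual degrees of freedom. SEs are derived from the F statistic. The fit was also run on data simulated from its own model, with the nuclease plate given the same dispersion as the others. That run cannot check the assumption that the nuclease plate varies like them. DESeq2 1.42.0, other filters, other draws and subsets of wells or plates were alternatives. Fits to wells split by keratins and to 11 plates were added later. Intervals are exact (Clopper-Pearson, 95%). They and the floor of 3 counts speak only to counting error. Of the symbols 21754 matched the RefSeq table of the same build, and 662 did not. Of the plates, 160 barcodes occur on all 3, where the whole series has 384 distinct barcodes. The naming rule gave the 10 genes with the smallest p (fewer than 5 were called), the top 5 of each plate and up to 4 of the most abundant members of each list. Not all of the last are described, but those tested were carried through the alternatives, as were genes chosen after their values were seen, except 3 genes that are not reported here. Rows and columns of the plate, and coding length or GC content, had been planned and were not analysed here. Figures were drawn with matplotlib 3.10.9.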

Additional observations from a re-analysis of the deposited data

Results flagged for a closer look

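On the plate of Sca-1-negative cells, which entered no comparison above, proteins encoded in mitochondrial DNA took 1.20% of counts over all wells. That was above all 10 standard plates, which lay between 0.210 and 0.566%, and close to the 1.26% of the nuclease plate. That plate had 52 wells with a median of 201 counts. Its median lay within the range of the standard plates, from 168 to 1870.5, while its sort differs from theirs. Its label names the postnatal days P57 and P679. The part of depth, sort or age in the share was not tested.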

How the results depend on the processing

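The result is a comparison of 1 plate with 2, without a label for nuclease, dose or animal. edgeR called 1 gene, 0 higher and 1 lower. DESeq2 called 35 (20 higher, 15 lower), no filter on low counts 27 (15, 12), a mean of at least 50 CPM 5 (2, 3), wells not matched 31 (12, 19), a second draw of wells 3 (1, 2), thinned wells 3 (0, 3), wells of at least 500 counts 23 (8, 15) and the 3 plates alone 0 (0, 0), with 293 genes at an unadjusted p under 0.05. Without Old2 the count was 1 (0, 1) and without Old4 5 (2, 3). Leaving abundant genes out of the library size gave 1. Of the fits added later, wells with higher basal keratins gave 9 (3, 6), with higher spinous keratins 1 (0, 1) and 11 plates 2 (0, 2). Eif2a passed in each fit except that of the 3 plates alone.

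For 132 named genes that were tested and are reported, 1752 log2 differences under the alternatives gave 100 changes of sign, in 52 genes, 107 calls that the reported fit did not make and 1 call lost. The values that changed sign follow by setting. In wells not matched these were Krt10 (-0.23), Krt5 (-0.24), Krt1 (-0.34), Dmkn (-1.19), Klk7 (-0.41), Lor (-3.26), Top2a (-0.95), Cenpf (-0.64), H2-Ab1 (0.70), H2-Eb1 (0.27), Atp5b (-0.38), Atp5a1 (-0.29), Eif4g1 (-0.043), Hsp90ab1 (-0.049), Hspa5 (-0.59), Jup (-0.24), Myh9 (-0.20), Flna (0.29), Psat1 (-0.47), Aldoa (-0.0090), Slc2a1 (-0.34), Mt2 (0.15), Tgfbi (-0.013), Eppk1 (-0.22), Hal (-3.10), H1f1 (-0.050), mt-Nd6 (0.23). In wells with higher basal keratins these were Krt10 (-0.29), Dmkn (-0.49), Krt79 (-0.079), Scd1 (0.54), Plin2 (-0.997), H2-Ab1 (0.39), Atp5a1 (-0.44), Eif4g1 (-0.31), H2bc18 (0.28), Flna (0.19), Cdh1 (0.052), H2-D1 (0.040), Psat1 (-0.34), Prdx5 (0.74), Tgfbi (-0.015). With higher spinous keratins these were S100a6 (0.98), Mki67 (-5.90), Krt15 (0.023), Defb6 (2.30), Top2a (-5.90), Epcam (0.0016), Atp5b (-0.041), Eif4g2 (-0.015), Egr1 (-0.054), Dnajb1 (-1.20), H1f2 (-0.10), Dst (-0.15), Flna (0.11), Hk1 (0.58), Gpx1 (-0.47), H1f1 (-4.92). At 500 counts or more these were Krt15 (0.12), Plin2 (-0.94), Atp5a1 (-0.038), Eif4g1 (-0.073), Dnajb1 (-0.058), Dst (-0.040), Flna (0.19), Atf4 (-0.077), Hal (-0.53). In a second draw these were Scd1 (0.35), Plin2 (-0.62), Flna (0.32), Hk1 (0.0076), Prdx5 (0.10), Cyp51 (0.21), Spink5 (0.38). In thinned wells these were Dst (-0.055), Myh9 (-0.030), Psat1 (-0.16). With no filter these were Krt15 (0.076), Flna (0.050), Cdh1 (0.031). Without Old2 and without Old4, in that order, the values of genes that changed sign in either were Krt15 (-0.10 and 0.053), Defb6 (0.075 and -0.33), Acsbg1 (0.19 and -0.68), Scd1 (-0.38 and 0.22), Thy1 (-1.24 and 0.61), H2-Ab1 (-1.43 and 1.81), H2-Eb1 (-2.85 and 0.60), Atp5a1 (-0.13 and 0.41), Dnajb1 (0.48 and -0.16), Myh9 (-0.043 and 0.10), Flna (0.049 and -0.15), Cdh1 (0.010 and -0.15), Nlrc5 (0.31 and -0.13), Atf4 (0.18 and -0.066), Psat1 (0.88 and -0.25), Slc2a1 (0.24 and -0.16), Hk1 (0.15 and -0.53), Gpx1 (0.59 and -0.11), Prdx5 (0.076 and -0.60), Spink5 (-0.39 and 0.27). The causes were not tested. In wells with higher spinous keratins Mki67 and Top2a had 0 counts on the nuclease plate and 1 on each standard plate, H1f1 had 0 against 1 and 0, and S100a6 had 1 against 1 and 0, so their fitted values there are no measure of a difference. Counts of Krt10 and Krt15 help decide which wells have higher basal or spinous keratins, so their changes of sign in those wells cannot be read as a difference between plates. Many of the listed genes have few counts or a reported difference near 0.

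Genes per well on the nuclease plate minus the mean of Old2 and Old4 were -3 at 200 counts, -1.5 with a second seed, -11.5 at 500 counts and -329.5 without thinning. The median total per nuclease well was 395.5, 358.5 over all wells of the file and 873 over wells of at least 500 counts. No paired analysis was possible because the plate numbers are names and no number is shared between the nuclease plate and the standard plates of that day.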
